A study of Magallana angulata with 9 samples.

Results

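The 200 most abundant transcripts of fresh D-larvae of the Portuguese oyster were followed through cryoprotectant exposure and cryopreservation. The members were the 200 genes, of 28372 listed, chosen by the highest mean CPM over the 3 fresh libraries, where CPM is the estimated count of a gene scaled to the total of its library. The levels in fresh larvae selected the members and are given as a description. Cryopreserved larvae spent 3 min at 4 °C in a solution of 10% dimethyl sulfoxide, 1% polyvinylpyrrolidone and 0.2 M sucrose, were frozen, kept for 2 months in liquid nitrogen, thawed at 37 °C for 10 s and given 1 h of recovery in seawater. Cryoprotectant exposed larvae met the same solution for the same time and were then diluted in seawater without freezing, and fresh larvae were concentrated in filtered seawater. Each of 3 larval pools, produced by crossing several males and females, was sampled once in each condition, which gives 9 libraries of polyadenylated RNA from 30000 larvae each. Freezing, storage and the recovery of 1 h came together in the cryopreserved larvae alone and cannot be told apart.

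A D-larva is the first shelled stage of an oyster, named for its straight hinge, and it swims with a ciliated velum. In animal cells the most abundant polyadenylated transcripts commonly include those for the translation machinery, the cytoskeleton and the mitochondria, and a small number of them takes a large part of all reads. A share of a library is a relative measure, so that a rise of a few abundant transcripts lowers the shares of all others. Genes carry NCBI gene numbers of the Crassostrea gigas annotation, with no names beside them. None of these numbers had an entry in the RefSeq table used for gene names, so the roles of the members are not given and the labelled stage was not checked against marker genes. Transcript lengths were not used either, and a high CPM reflects many reads, from an abundant or from a long transcript. RNA was taken from whole larvae, in which fewer cells of a type and less RNA per cell cannot be told apart.

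The library totals were 22367780 to 24440543 counts in cryopreserved, 33643297 to 45990672 in cryoprotectant exposed and 24482043 to 45051399 in fresh larvae. The cryopreserved libraries were the shallowest, and the lowest value of a member in any library was 237 counts. All 200 members passed the filter on low counts, which kept 23052 genes.

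The list was held together by a long gradient of abundance. The most abundant gene averaged 24432 ± 6398 CPM (SD, n = 3) in fresh larvae, and the gene at rank 200, 105337008, averaged 545 ± 60.4 CPM (SD, n = 3). Around the limit the levels were almost flat. Gene 105324496, the next in order and just outside, averaged 543 ± 159 CPM (SD, n = 3) in fresh larvae. Among the single fresh libraries, 176, 174 and 167 members were within the first 200 genes of pools 1, 2 and 3, and 132 members were within the first 200 in all 3 of them. A member ranked as low as 887 in a single fresh library.

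As a group, the members took 24.9% to 34.6% of the library, with overlap between the conditions. They held 29.0%, 34.6% and 28.4% of the counts in cryopreserved larvae of pools 1, 2 and 3. They held 32.9%, 29.6% and 25.2% in cryoprotectant exposed larvae and 31.3%, 28.2% and 24.9% in fresh larvae of the same pools. The means were 30.7% ± 3.45 in cryopreserved, 29.2% ± 3.86 in cryoprotectant exposed and 28.2% ± 3.21 in fresh larvae (SD, n = 3 each), and all 3 groups overlapped. Within pools the difference between cryopreserved and exposed larvae did not keep its direction, with -3.97 percentage points in pool 1, 5.09 in pool 2 and 3.16 in pool 3. Exposed larvae were above fresh larvae in all 3 pools, by 1.63, 1.33 and 0.332 percentage points. Each library's own first 200 genes held 31.7% to 37.9% in cryopreserved, 26.1% to 33.4% in exposed and 25.5% to 31.7% in fresh larvae.

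**Figure D1:**
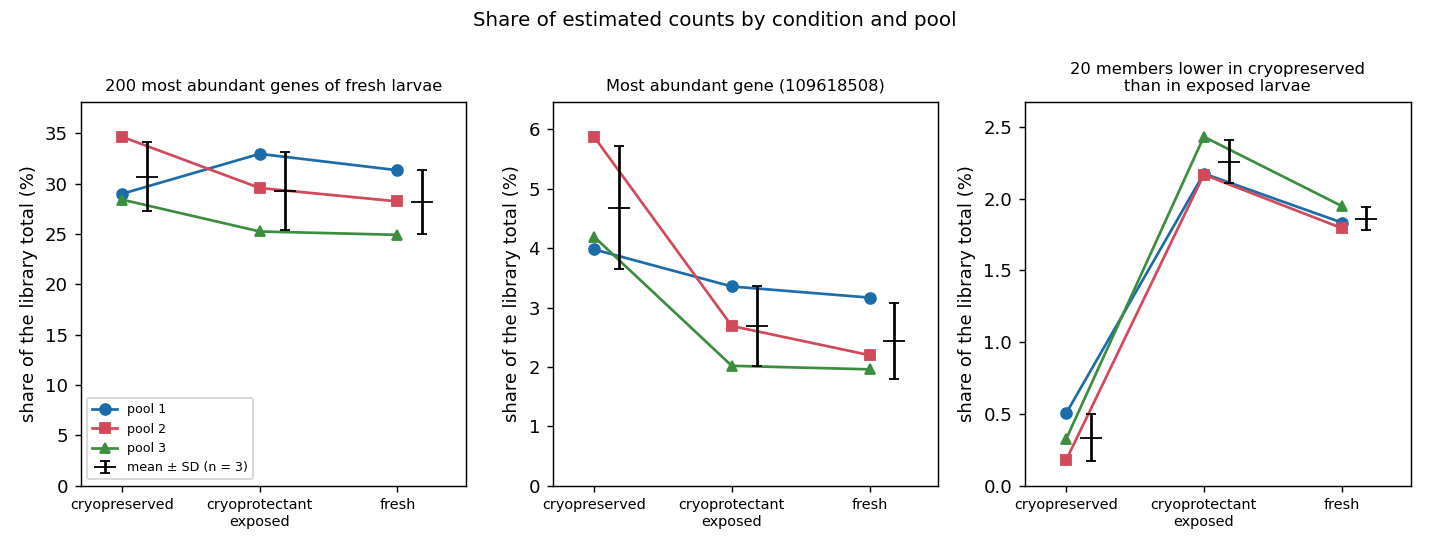
The vertical axes give the percentage of the library total, and the horizontal axes the cryopreserved, cryoprotectant exposed and fresh larvae, with a symbol and a line for each pool and the mean ± SD (n = 3) beside them. The share of the 200 members overlaps between conditions, the most abundant gene lies at 3.98% to 5.88% in cryopreserved larvae and below that range in the others, and the 20 members called lower hold 0.178% to 0.504% in cryopreserved larvae against 2.17% to 2.43% in exposed and 1.80% to 1.95% in fresh larvae.

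The total covered different movements at different ranks. The first 20 members averaged 16.2% ± 2.29 of the counts in cryopreserved larvae, 13.4% ± 2.45 in exposed and 12.5% ± 1.81 in fresh larvae (SD, n = 3 each). Cryopreserved minus exposed larvae was -1.74 percentage points in pool 1, 5.92 in pool 2 and 4.24 in pool 3, so the direction differed between pools. The members of ranks 21 to 50 averaged 3.90% ± 0.471 in cryopreserved larvae, 4.66% ± 0.727 in exposed and 4.46% ± 0.716 in fresh larvae (SD, n = 3 each). The last 100 members averaged 6.05% ± 0.625 in cryopreserved, 6.50% ± 0.531 in exposed and 6.44% ± 0.473 in fresh larvae (SD, n = 3 each). In both of these groups the cryopreserved library was the lowest of its pool in all 3 pools, although the conditions overlapped. Cryopreserved minus exposed larvae of pools 1, 2 and 3 was -1.44, -0.334 and -0.490 percentage points for ranks 21 to 50 and -0.605, -0.270 and -0.468 for the last 100 members. Ranks 51 to 100 kept this order too, with -0.185, -0.228 and -0.117 percentage points. These sums do not describe most members. Of the last 100, 64 had a positive fitted log2 fold change against exposed larvae and 36 a negative one. Their median was 0.23, and 12 were downregulated as defined below. Of ranks 21 to 50, 14 were positive and 16 negative, with 3 downregulated.

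The most abundant gene was 109618508 in all 3 conditions. It had 39804, 58778 and 41946 CPM in cryopreserved larvae of pools 1, 2 and 3, against 33560, 26910 and 20202 CPM in exposed and 31690, 21998 and 19609 CPM in fresh larvae. Every cryopreserved library lay above every other library. The log2 fold change of cryopreserved against exposed larvae was 0.92 (standard error 0.40, with an adjusted p of 0.235 in edgeR), which did not pass the test. The fit with the pool as a block gave an adjusted p of 0.0307 in edgeR with all 9 libraries and 0.122 with the 6 libraries of this contrast alone. DESeq2 without the block gave an adjusted p of 0.0425. The adjusted p was under 0.05 in 2 of 18 alternative fits. The gene alone accounted for 0.624, 3.19 and 2.17 percentage points of the difference between cryopreserved and exposed larvae in pools 1, 2 and 3. Without it, the other members differed by -4.60, 1.90 and 0.991 percentage points.

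The genes at ranks 2 and 3 did not pass the test. Gene 105343071 had 9392, 14908 and 16375 CPM in cryopreserved larvae of pools 1, 2 and 3, against 22845, 17480 and 17308 CPM in exposed and 19285, 15374 and 14671 CPM in fresh larvae. Cryopreserved larvae were below exposed larvae without overlap and overlapped with fresh larvae. Its log2 fold change against exposed larvae was -0.39 with a standard error of 0.34 and did not pass the test in edgeR (adjusted p = 0.612). Gene 105329348 had 10455, 13888 and 18020 CPM in cryopreserved, 24390, 12983 and 17427 CPM in exposed and 20576, 11155 and 14773 CPM in fresh larvae. All 3 groups overlapped, and the log2 fold change against exposed larvae was -0.26 (standard error 0.39, edgeR adjusted p = 0.812). Within pools it was -1.22, 0.10 and 0.05 on the log2 scale of CPM in pools 1, 2 and 3, so its direction differed between pools. In both genes the exposed library was above the fresh library of its pool in all 3 pools, by means of 0.22 and 0.23 on the log2 scale.

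Ranks 4 and 5 were held by 109618509 and 105338957. Gene 109618509 had 16707, 13957 and 10358 CPM in cryopreserved, 11350, 3590 and 6365 CPM in exposed and 8230, 7607 and 10746 CPM in fresh larvae. Its exposed libraries spread over a wide range, and the log2 fold change of cryopreserved against exposed larvae was 1.06 (standard error 0.43, edgeR adjusted p = 0.198, with 0.0343 with the pool as a block and 0.0736 with the block and the 6 libraries alone). Gene 105338957 averaged 8899 ± 2428 CPM in cryopreserved, 8019 ± 2059 in exposed and 8064 ± 1719 in fresh larvae (SD, n = 3 each), with groups that overlapped. The number after 109618509, 109618510, which was singled out after its values were seen, held rank 8 in fresh larvae. It had 7995, 11597 and 8570 CPM in cryopreserved larvae of pools 1, 2 and 3, against 5610, 5285 and 3990 CPM in exposed and 6004, 4474 and 3879 CPM in fresh larvae, again with every cryopreserved library on top (log2 fold change 1.04 against exposed larvae, standard error 0.34, edgeR adjusted p = 0.106, with 0.0113 with the block and 0.0492 with the block and the 6 libraries alone). For 109618510 DESeq2 without the block gave an adjusted p of 0.00696, and 3 of 18 alternative fits were under 0.05. These 3 genes of consecutive numbers had estimates that were not whole numbers in any of the 9 libraries, as 177 of the 200 members did, and whether reads were shared among them was not tested. In all, 13 members formed 6 runs of consecutive gene numbers, of which none was downregulated past both thresholds without the block and 4 of the 13 were with it.

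Between cryopreserved and cryoprotectant exposed larvae, 20 of the 200 members were downregulated and 0 upregulated, where a call needed a Benjamini-Hochberg adjusted p below 0.05 and a log2 fold change beyond 1.5 in either direction (edgeR, quasi-likelihood, 9 libraries). Of all genes tested, 1.93% were downregulated and 1.07% upregulated by this rule, so the share of members that fell, 10%, lay above the background. No upregulated member was found at an unadjusted p-value under 0.05 with the same fold change either, nor by DESeq2 or limma-voom. The largest log2 fold change of a member was 1.21 in the reported fit, so the weaker limit on p could not have given one. With the pool as a block, 26 members were downregulated and 0 upregulated, against a background of 3.01% and 1.84%, and all 20 genes were among the 26. The fresh libraries, which selected the members, enter this fit through its estimate of the spread, and with the 6 cryopreserved and exposed libraries alone 16 members were downregulated and 0 upregulated. They also share their pools with the exposed libraries and held the members in nearly the same order. A list ranked in fresh larvae can hold genes that leave the first 200 and cannot hold those that enter it. With 200 members ranked on the mean of all 9 libraries, 12 were downregulated and 8 upregulated. That ranking uses the cryopreserved and exposed libraries of the contrast itself, so its counts are shaped by the choice as well. Choosing genes that are high in fresh larvae favours falls. Both the share of members that fell and the absence of upregulated members depend on how the list is ranked. In CPM, 35 members (17.5%) were lower and 27 (13.5%) higher in all cryopreserved than in all exposed libraries, against a background of 16.4% and 8.19%.

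At an adjusted p-value under 0.05 without a fold change threshold, 21 members were lower and 6 higher in cryopreserved than in exposed larvae, against a background of 3.66% lower and 3.9% higher. This count depended on the fit. With the pool as a block it was 33 lower and 39 higher, where the background was 12.6% lower and 12.8% higher. With a single library left out, whichever it was, 0 to 2 members were higher. The median log2 fold change of the members was 0.22, and that of all genes tested was -0.00. With library sizes in place of TMM the medians were 0.10 for the members and -0.13 for all genes. The median rests on single libraries, since it was 0.01 without cryopreserved replicate 2, 0.05 without cryoprotectant exposed replicate 3, 0.34 without cryopreserved replicate 3 and 0.38 without cryoprotectant exposed replicate 2.

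**Figure D2:**
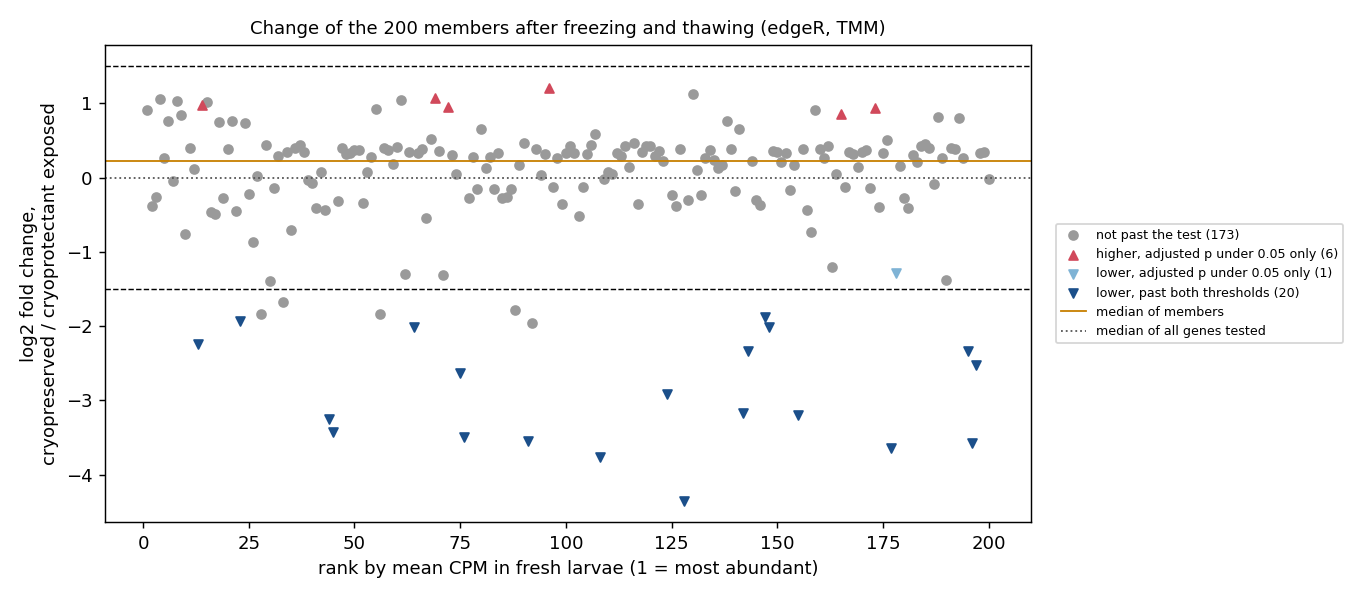
The horizontal axis gives the rank of a member in fresh larvae and the vertical axis its log2 fold change in cryopreserved against cryoprotectant exposed larvae, with dashed lines at 1.5 in either direction and lines at the median of the members (0.22) and of all genes tested (-0.00). The 20 members past both thresholds lie between -4.35 and -1.88, spread over ranks 13 to 197, while no member reaches the upper line.

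The 20 downregulated members were low in every cryopreserved library. Their log2 fold changes against exposed larvae ran from -4.35 to -1.88 with a median of -3.05, and their adjusted p-values from edgeR lay between 0.00266 and 0.0437. Only the smallest of these falls overlapped in size with those of other members, 5 of which lay beyond -1.5 without passing the adjusted p, down to -1.95. All 20 were below the exposed and the fresh larvae without overlap, which their choice by this contrast favours. Over all members, 17.5% lay below exposed larvae without overlap and 17% below fresh larvae. Of all genes tested, 16.4% and 19.2% did. Together the 20 genes held 0.504%, 0.178% and 0.324% of the counts in cryopreserved larvae of pools 1, 2 and 3, against 2.18%, 2.17% and 2.43% in exposed larvae and 1.83%, 1.80% and 1.95% in fresh larvae. In fresh larvae they ranked from 13 to 197 with a median of 126, and 12 of them belonged to the last 100 members. Ranks 1 to 12 held none. In cryopreserved larvae they ranked from 137 to 4393 with a median of 1613, and 15 lay beyond rank 1000.

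Gene 105329028 showed the largest fall. It had 65.4, 10.4 and 53.2 CPM in cryopreserved larvae of pools 1, 2 and 3, against 938, 806 and 1054 CPM in exposed and 856, 572 and 659 CPM in fresh larvae. It fell to 43.0 ± 28.9 CPM in cryopreserved larvae, against 933 ± 124 CPM in exposed larvae (SD, n = 3 each), and its rank fell to 4393, against 79 in exposed and 128 in fresh larvae. The log2 fold change was -4.35 (standard error 0.59, edgeR adjusted p = 0.00414), a 20.4-fold fall, and the adjusted p stayed under 0.05 in all 18 alternative fits, between 6.89e-15 and 0.0194.

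Gene 105319410 showed the next largest fall, with 111, 24.1 and 81.5 CPM in cryopreserved larvae, against 959, 1019 and 1152 CPM in exposed and 682, 754 and 813 CPM in fresh larvae. Its log2 fold change against exposed larvae was -3.76 (standard error 0.46, edgeR adjusted p = 0.00292), a 13.5-fold fall. In both genes cryopreserved replicate 2 was the lowest of all libraries.

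The libraries of cryopreserved larvae differed in how far these members fell. Cryopreserved replicate 2 was the lowest of the 3 for 18 of the 20 genes, and cryopreserved replicate 1 was the highest for 17. The median over the 20 genes was 154, 75.7 and 122 CPM in cryopreserved larvae of pools 1, 2 and 3, against 834, 899 and 970 CPM in exposed and 696, 760 and 745 CPM in fresh larvae. The highest cryopreserved library exceeded the lowest by a median of 4.25 times for these 20 genes and by 1.71 times for the other 180 members. In fresh larvae the same ratio was 1.51 for the 20 genes and 1.59 for the others. Within pools, the median log2 difference between cryopreserved and exposed larvae was -2.22, -3.98 and -3.20 in pools 1, 2 and 3. Without cryopreserved replicate 2 the number of downregulated members was 18, and all 20 genes kept a negative log2 fold change. Over all single libraries left out, 16 to 24 members were downregulated.

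In exposed larvae the same 20 genes were slightly above their fresh level. The fitted log2 change of exposed against fresh larvae was positive for 19 of the 20, with a median of 0.33 and a range from -0.19 to 0.53. These genes were picked for being low against the exposed libraries, which favours high values there, and no test was made. Against fresh larvae, the cryopreserved larvae had a median log2 change of -2.70 over these genes, with a range from -3.89 to -1.49.

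**Figure D3:**
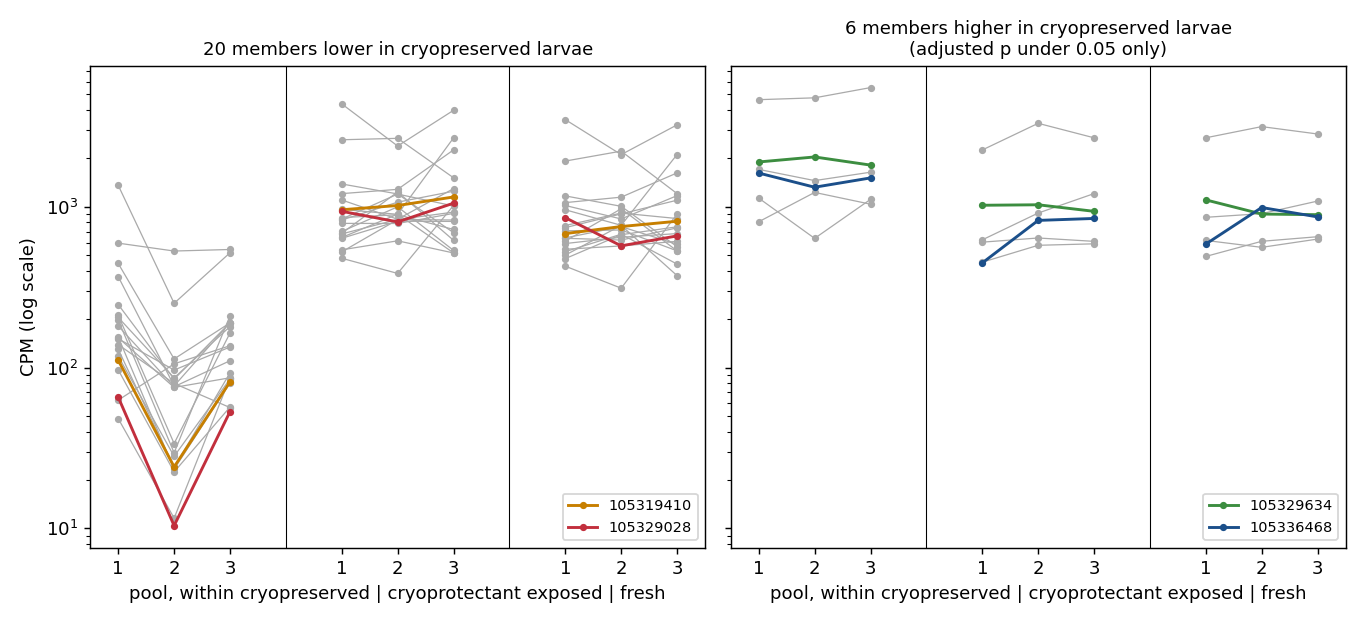
The vertical axis gives CPM on a log scale and the horizontal axis the 3 pools within cryopreserved, cryoprotectant exposed and fresh larvae, with a line for each gene. On the left, the 20 downregulated members lie at 10.4 to 1360 CPM in cryopreserved larvae, lowest in pool 2 for 18 of them. On the right, the 6 members that were higher by the adjusted p alone are drawn on the same scale, with 105336468 and 105329634 coloured and above their exposed and fresh levels in all cryopreserved libraries.

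Of the 6 members that were higher by the adjusted p-value alone, none reached a log2 fold change of 1.5. Gene 105336468 had the largest rise, with 1623, 1325 and 1513 CPM in cryopreserved larvae of pools 1, 2 and 3, against 448, 823 and 847 CPM in exposed and 587, 990 and 866 CPM in fresh larvae. The cryopreserved libraries were the highest without overlap, with a log2 fold change against exposed larvae of 1.21 (standard error 0.27, edgeR adjusted p = 0.0287). Gene 105329634 had 1902, 2043 and 1818 CPM in cryopreserved, 1023, 1030 and 938 CPM in exposed and 1105, 902 and 894 CPM in fresh larvae. Its libraries were close together within each condition, and its log2 fold change was 1.07 (standard error 0.22, edgeR adjusted p = 0.021). Both calls changed with the fit. The adjusted p of 105336468 was under 0.05 in 11 of the 18 alternative fits, with 0.0831 as the highest, without cryoprotectant exposed replicate 1. That of 105329634 was under 0.05 in 12 of the 18, with 0.0669 as the highest, without cryoprotectant exposed replicate 3.

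Most of the other members differed little. Of the 180 members that did not pass both thresholds, 136 changed by less than 0.5 and 162 by less than 1 on the log2 scale between cryopreserved and exposed larvae. A narrow band between 0.2 and 0.5 held 75 members, 37.5% of the list, against 15.7% of all genes tested. The band was drawn after the values were seen and was not tested. Of all genes tested, 3.9% were higher by the adjusted p of 0.05 alone in edgeR, and 12.8% with the block. None of the 75 genes of the band passed it without the block, and 13 did with it. They ranked from 5 to 199 in fresh larvae, 62 of them beyond rank 50, and from 7 to 197 in cryopreserved larvae, so that all of them stayed within the first 200. Together they took 7.82%, 9.95% and 6.42% of the counts in cryopreserved larvae of pools 1, 2 and 3, against 7.13%, 8.12% and 5.44% in exposed and 7.28%, 8.73% and 5.98% in fresh larvae. The cryopreserved library was the highest of its pool in all 3 pools, and the exposed library the lowest, and the groups overlapped. The choice of the band by its change against exposed larvae favours high cryopreserved and low exposed values, and so both of these orders. The pool took a median of 86.5% of the variation of these genes over the 9 libraries.

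In rank, the members lay close to their fresh places in exposed larvae, and a part of them lay far lower in cryopreserved larvae. Of the 200 members, 151 were among the first 200 genes of cryopreserved larvae by mean CPM, and 186 among those of exposed larvae. The lowest rank of a member was 4393 in cryopreserved and 252 in exposed larvae. By these means, 24 members lay beyond rank 400 and 15 beyond rank 1000 in cryopreserved larvae, and none beyond rank 400 in exposed larvae. The single libraries differed less. In exposed larvae of pools 1, 2 and 3, 169, 176 and 155 members were within the first 200, and 1, 0 and 6 lay beyond rank 400. In cryopreserved larvae 145, 146 and 134 were within the first 200, and 21, 32 and 31 lay beyond rank 400. The lowest rank in a single exposed library was 1083, in pool 3. At the top of the list, again by mean CPM, 16 of the first 20 members were among the first 20 genes of cryopreserved larvae. In exposed larvae 19 were. All of the first 20 members stayed within the first 200 genes by mean CPM in both conditions. Across all 9 libraries taken singly, 83 members were always within the first 200. Of the 49 members that left the first 200 in cryopreserved larvae, 25 moved no further than rank 400, and 19 were among the downregulated genes.

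**Figure D4:**
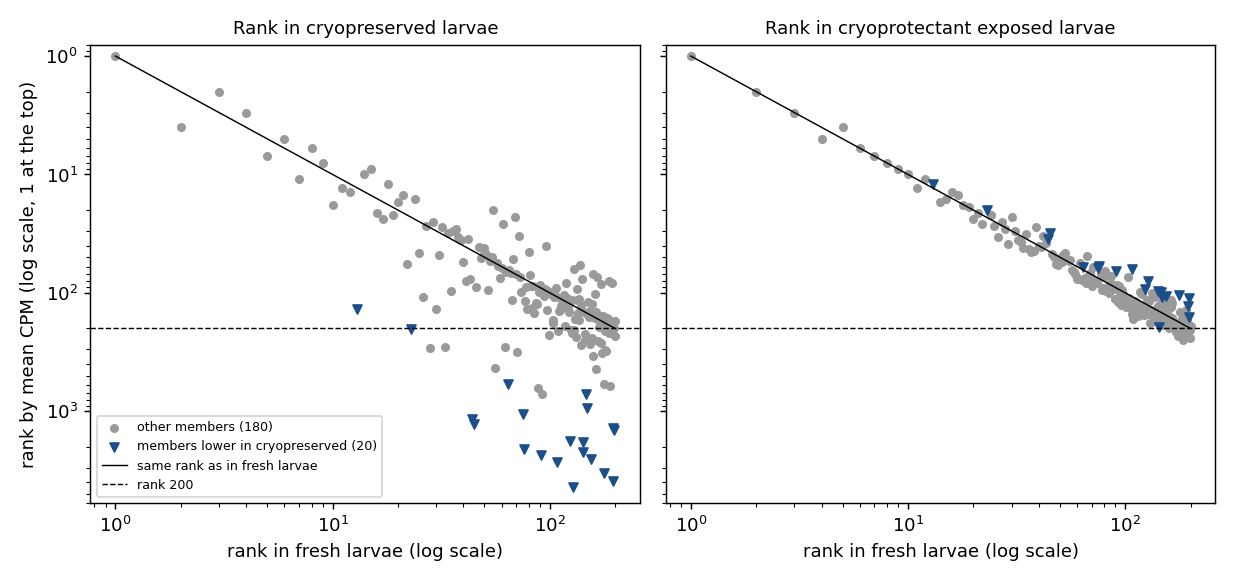
The horizontal axes give the rank by mean CPM in fresh larvae and the vertical axes the rank in cryopreserved larvae (left) and cryoprotectant exposed larvae (right), all on log scales with rank 1 at the top left. Points on the solid line kept their rank. In cryopreserved larvae 49 points lie beyond the dashed line at rank 200, down to rank 4393, and in exposed larvae 14, down to rank 252.

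The places that were left were taken by 49 genes from outside the list. Their median rank in fresh larvae was 337 and their lowest was 4931, and 31 of them lay no lower than rank 400 there. In cryopreserved against exposed larvae 19 of the 49 were upregulated past both thresholds, which the choice of genes high in cryopreserved larvae favours. The highest was 105345814, at rank 19 in cryopreserved larvae, against 334 in exposed and 344 in fresh larvae. It had 1891, 2396 and 1951 CPM in cryopreserved larvae of pools 1, 2 and 3, against 170, 449 and 542 CPM in exposed and 243, 476 and 389 CPM in fresh larvae. Its cryopreserved libraries were the highest without overlap. Gene 105330331 followed at rank 32, with 1301, 1484 and 2140 CPM in cryopreserved, 179, 314 and 452 CPM in exposed and 336, 317 and 405 CPM in fresh larvae. Here too all cryopreserved libraries lay above the others.

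Between cryoprotectant exposed and fresh larvae, 0 members and 0 of all genes tested passed the adjusted p-value in edgeR, a background of 0%, and 0 members had an unadjusted p-value under 0.05. With the pool as a block the counts again were 0, with 2 members at an unadjusted p-value under 0.05. DESeq2 and limma-voom were not run for this contrast. The fresh values chose the members, so nothing is read from these counts. The fitted log2 changes of the members lay between -0.24 and 0.53, with a median of 0.04, and none was beyond 1 in either direction. In CPM, 4 members were higher and 0 lower without overlap, against a background of 1.04% and 2.02%. The largest rise that kept its direction in all 3 pools was that of 105319410, described above as the member with the next largest fall in cryopreserved larvae, at 0.49, 0.43 and 0.50 on the log2 scale of CPM in pools 1, 2 and 3. The largest fall was that of 105323946, which had 237, 544 and 935 CPM in exposed and 463, 648 and 962 CPM in fresh larvae of these pools. Its groups overlapped widely, and in cryopreserved larvae it had 1225, 1040 and 1097 CPM, above every other library. Its log2 fold change of cryopreserved against exposed larvae was 1.13 (standard error 0.40, edgeR adjusted p = 0.139), which did not pass the test. The adjusted p was under 0.05 in 2 of the 18 alternative fits, with 0.0166 in edgeR with the block and 0.0380 in DESeq2.

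In cryopreserved against fresh larvae, 18 members were downregulated and 0 upregulated past both thresholds in edgeR, and 24 and 0 with the pool as a block. No member was upregulated at an unadjusted p-value under 0.05 with this fold change. The largest log2 change of a member was 1.17, so the weaker limit on p could not have given one. DESeq2 and limma-voom were not run here either. The background was 1.37% downregulated and 0.833% upregulated, and 2.33% and 1.65% with the block. These libraries chose the members too, and this contrast shares its cryopreserved libraries with that against exposed larvae, so the counts are given without a reading. By the adjusted p alone 19 were lower and 6 higher (background 2.59% and 3.04%), and 34 were lower and 27 higher in CPM without overlap (background 19.2% and 6.48%). The median log2 change was 0.24 for the members and -0.02 for all genes tested.

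The exposed and the fresh library of a pool held the members in nearly the same order, while pools differed. Across the 200 members, Spearman's rho between the exposed and the fresh library of a pool was 0.966, 0.933 and 0.958 in pools 1, 2 and 3. Between the cryopreserved and the exposed library of a pool it was 0.587, 0.599 and 0.547, and between the cryopreserved and the fresh library 0.685, 0.705 and 0.642. Between fresh libraries of different pools it was 0.788 for pools 1 and 2, 0.590 for pools 1 and 3 and 0.488 for pools 2 and 3. These values are across genes of the same libraries, and they describe the 9 libraries only. In the variation of log2 (CPM + 0.5) over the 9 libraries, the pool took a median of 63.9% for the members and 46.5% for all genes tested, and the condition 19.7% and 25.7%. For the 20 downregulated members the condition took a median of 88.6%, which their choice favours, and the pool 4.18%.

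**Figure D5:**
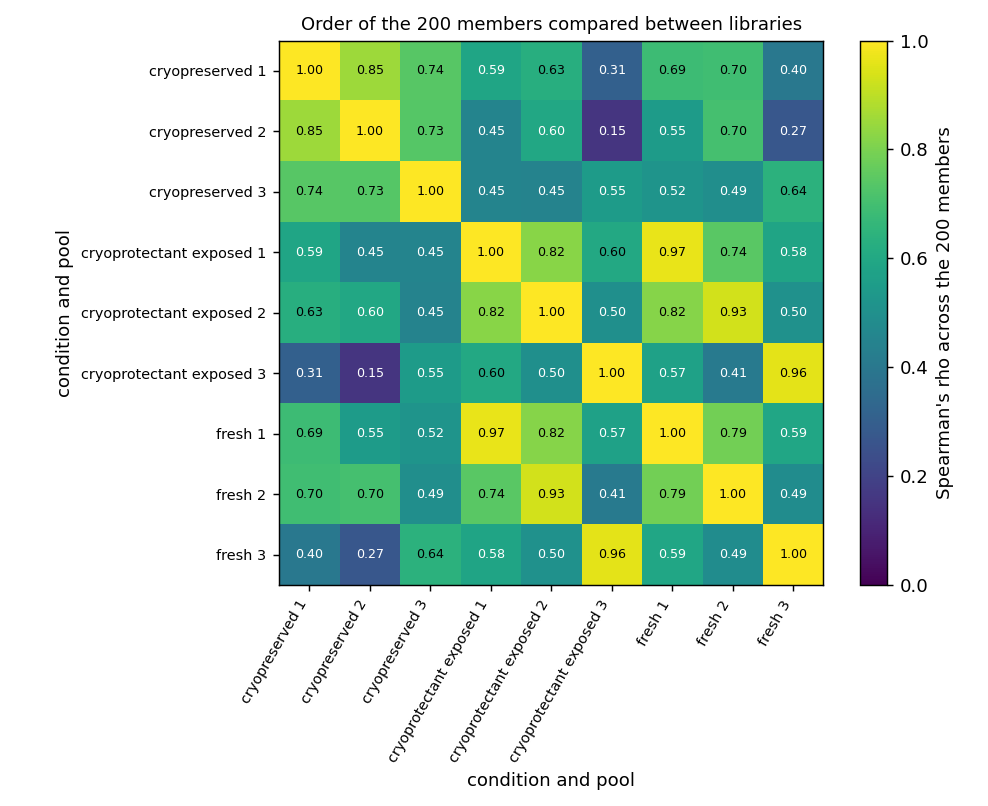
Rows and columns are the 9 libraries by condition and pool, and each cell gives Spearman's rho of CPM across the 200 members, by colour from 0 to 1. Exposed and fresh libraries of the same pool reach 0.933 to 0.966, while cryopreserved libraries reach at most 0.705 with a library of another condition, and 0.735 to 0.852 among themselves.

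The fresh libraries themselves spread by a median of 1.58 times between the highest and the lowest pool, and 31 members differed more than 2-fold and 10 more than 4-fold. The fresh larvae of pool 3 had the lowest level for 111 members, against 36 in pool 1 and 53 in pool 2. Gene 105331753 had the widest range, with 1437, 772 and 216 CPM in cryopreserved larvae of pools 1, 2 and 3, against 2828, 1490 and 298 CPM in exposed and 3070, 1517 and 342 CPM in fresh larvae. Pool 3 was the lowest and pool 1 the highest in every condition. The log2 fold change between cryopreserved and exposed larvae was -0.87 (standard error 1.01, edgeR adjusted p = 0.727), and pairing by pool gave -0.67 with an adjusted p of 0.0196 in edgeR. Gene 105342764 had 1304, 1216 and 212 CPM in cryopreserved, 948, 810 and 169 CPM in exposed and 1340, 767 and 196 CPM in fresh larvae. It too was lowest in pool 3 under every condition. For these members the range between pools exceeded that between condition means, and of the fits run, the block with all 9 libraries was the one in which the change passed the adjusted p (edgeR adjusted p = 0.0394 for 105342764, against 0.816 without the block). With the block and the 6 libraries of the contrast the adjusted p in edgeR was 0.0939 for 105331753 and 0.0820 for 105342764.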

How the data were processed

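The authors filtered the reads with BBTools and SortMeRNA, aligned the clean reads to the Crassostrea gigas genome and summed expression to genes with Salmon 1.1, and the deposited table holds the estimated counts of 28372 genes in 9 libraries, without normalization or filter. Columns were matched to samples by the position that the labels give. The members and lists were chosen with earlier results of these data known. CPM were computed from the column totals of the unrounded estimates. For the tests the estimates were rounded, a gene was kept if 3 or more libraries had 5 or more counts of it, and edgeR 4.0.16 (R 4.3.3) with TMM scaling fitted condition alone to the 9 libraries by quasi-likelihood (prior count 0.125). P-values were adjusted by Benjamini and Hochberg over all genes tested, and 0.05 and a log2 fold change of 1.5 were the thresholds, after the study's methods. Standard errors are the log2 fold change over the root of F. A value was called whole within 1e-06. Alternatives were RLE and library size scaling, other filters, DESeq2 1.42.0, limma-voom (limma 3.58.1), 6 libraries alone, the replicate block, each library left out and other member lists. Deviations from the condition means correlated between libraries of the same number in all 9 pairs (r from 0.513 to 0.863), and the study states that each pool met all 3 conditions, so the numbers were taken to mark pools.

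The genes named are the 5 most abundant members, those at ranks 200 and 201, the 2 largest rises and falls past the test in the same direction in all pools (by the adjusted p alone for rises), the largest steady rise and fall on exposure, the 2 with the widest range in fresh larvae and the 2 most abundant newcomers in cryopreserved larvae, and 109618510, which was added after its values were seen. The TruSeq kit used does not mark strand, so reads of overlapping genes cannot be told apart. The scripts were tested on simulated counts. No sequence was printed, since the gene numbers had no match in the reference table used.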

Additional observations from a re-analysis of the deposited data

How the results depend on the processing

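The count of 20 downregulated members between cryopreserved and exposed larvae stayed between 16 and 26 in all 18 alternative fits, and 15 of the 20 genes were called in each of them. The lowest count was 16, with the 6 libraries alone or without cryopreserved replicate 3 or cryoprotectant exposed replicates 1 or 3. Of all genes tested, 1.93% were downregulated in the reported fit and 3.01% with the replicate block. With library size scaling it was 483 of 23052 genes. This share of all genes was not counted in the remaining fits. A log2 threshold of 1 gave 21 downregulated and 2 upregulated members, and the share of all genes past it was not counted. With other members the count moved more. The first 100 genes gave 8 calls, all 8 downward, the first 500 gave 45, with 38 downward and 7 upward, and ranking over all 9 libraries gave 12 downward and 8 upward.

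By the adjusted p alone, 27 members (21 lower, 6 higher) became 72 (33 and 39) with the replicate block, 41 with 12 higher with the block and 6 libraries alone, 55 with 27 higher in DESeq2, and 17 with 0 higher with the 6 libraries alone. Library size scaling gave 22 lower and 2 higher, against 995 and 500 of the 23052 genes tested. The share of all genes moved with the fit as well. It was 3.66% lower and 3.9% higher in the reported fit and 12.6% and 12.8% with the block. It was not counted in the remaining fits, where a change of the members cannot be told apart from a change over all genes. Without a single library the count lay between 17 and 26, with 0 to 2 higher. The first 100 genes gave 12 with 8 lower, the first 500 gave 64 with 41 lower and 23 higher, and ranking over all 9 libraries gave 12 lower and 18 higher.

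The median log2 fold change of 0.22 was 0.10 with library size scaling, 0.045 over the first 500 genes, and 0.013 to 0.38 without a single library. It was 0.22 with the replicate block too.

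The members' share was 24.6%, 22.8% and 21.7% in cryopreserved, exposed and fresh larvae for the first 100 genes and 42.2%, 40.8% and 39.5% for the first 500. With the 5 most abundant genes taken out of both the members and the library total, it was 23.2%, 23.2% and 22.5%. These last values are shares of a smaller total and do not compare directly with the others. The difference between cryopreserved and exposed larvae, 1.43 percentage points, lay between -0.576 and 3.28 without a single library, and it turned to -0.557 without cryopreserved replicate 2 and to -0.576 without cryoprotectant exposed replicate 3. It was 4.09 with TMM effective library sizes and 3.34 with members ranked over all 9 libraries. The counts of members kept among the first 200 genes stayed between 139 and 164 in cryopreserved and between 174 and 186 in exposed larvae.

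Of the genes named, 3 changed sign in some fit, none of which passed the test. Gene 105329348 lay between -0.43 and 0.069 without a single library, positive without cryoprotectant exposed replicate 1. Gene 105338957 lay between -0.041 and 0.45, negative without cryopreserved replicate 2. Gene 105337008 was 0.0036 with DESeq2 or RLE scaling and lay between -0.11 and 0.13 without a single library, positive without cryopreserved replicate 1 or cryoprotectant exposed replicate 3. No member had fewer than 237 counts in any library, and the part of depth in these values was not tested.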
